A study of Drosophila melanogaster with 30 samples.

Results

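Translation initiation, elongation and release factors are the proteins that bring ribosomes to mRNAs, move them along the reading frame and free the finished chain. The genes described here are those of the wing disc RNA count table whose names begin with eIF, eEF or eRF and whose mean was 10 or more reads over 9 libraries. The table holds 17868 genes, of which 53 carry such a name and 47 met the minimum. The member nearest above it was eIF4E7 with a mean of 11.9 reads, and the gene nearest below it was eIF4H2 with 8.89 reads. The members were grouped by name into 13 subunits of eIF3, 10 eIF4 factors, 5 subunits each of eEF1 and eIF2B, 4 genes of eIF2 with eIF2D, 3 other elongation factors (eEF2, eEF5 and eEFSec), and pairs for eIF1 with eIF1A, eIF5 with eIF5B and the release factors, with eIF6 alone.

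The study asked how GAGA-associated factor (GAF) mutants affect chromatin structure and gene expression in Drosophila melanogaster. GAF is the product of the Trithorax-like gene (Trl), a zinc finger protein that binds GAGAG motifs. RNA came from wing imaginal discs, the larval tissue that forms the wing and the dorsal thorax, of wandering larvae in their last instar, with 30 discs per replicate and 3 replicates per genotype. The genotypes were delta-Q (GAF without its Q domain), delta-POZ (GAF without its POZ domain, through which GAF molecules associate) and Halo-Trl (full-length GAF). All 3 are Halo tagged, so that each deletion line was set against a tagged line and no untagged line entered the comparisons. Each genotype is 1 line, so the effect of a deletion and that of the line's background cannot be told apart below. Discs of many larvae were mixed in each replicate, and in such bulk samples fewer cells of a type and less RNA per cell cannot be told apart.

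Initiation begins when eIF2, bound to GTP and the initiator tRNA, joins the small ribosomal subunit together with eIF1, eIF1A, eIF3 and eIF5, while the eIF4 factors bind the cap of the mRNA and unwind its leader. After the start codon is found, eIF5B brings in the large subunit, and eIF2B recharges eIF2 with GTP, a step at which many stresses halt translation. In elongation eEF1 delivers aminoacyl-tRNAs and eEF2 moves the ribosome, and eRF1 with eRF3 ends the chain at a stop codon. Disc cells grow and divide until late in larval life, and growing cells hold these factors in quantity.

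Total reads in genes ranged between 57673928 and 85575887 per library, and the 37 genes of the mitochondrial genome took 15.1% to 31.1% of them. All 14 wing disc epithelium markers had reads in every library, with summed levels of 4876 to 5818 CPM in delta-Q, 4923 to 5829 CPM in delta-POZ and 5082 to 6101 CPM in Halo-Trl (CPM, read counts scaled to a common library size, here with TMM factors). Markers of other tissues were uneven between libraries. The 6 fat body markers summed to 581, 955 and 6205 CPM in delta-Q, 74.5, 249 and 33.5 CPM in delta-POZ and 5945, 15.1 and 36.6 CPM in Halo-Trl. The 5 neuron and glia markers summed to 407 CPM in delta-POZ 2, against 10.5 to 81.2 CPM in the other libraries, and the 5 salivary gland markers to 19.2 CPM in delta-POZ 1, against 0.0939 to 0.977 CPM. The 7 blood cell markers summed to 786 CPM in delta-Q 2, 778 CPM in delta-POZ 3 and 596 CPM in delta-POZ 2, against 184 to 374 CPM in the other libraries. Trl itself stood at 56.6, 60.3 and 64.0 CPM in delta-Q, 78.4, 67.7 and 61.0 CPM in delta-POZ and 51.3, 49.8 and 41.8 CPM in Halo-Trl. A gene-level sum of reads cannot show whether a domain is missing.

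Together the 47 members took 4.39%, 4.83% and 5.21% of the reads outside the mitochondrial genome in delta-Q, 4.30%, 3.80% and 4.15% in delta-POZ and 5.47%, 5.57% and 5.18% in Halo-Trl. Every delta-POZ library lay below every library of the other genotypes. eEF1alpha1, the carrier of aminoacyl-tRNAs to the ribosome, alone took 2.07%, 2.70% and 3.13% in delta-Q, 2.58%, 2.05% and 2.52% in delta-POZ and 3.24%, 3.39% and 2.97% in Halo-Trl. The other members together took 2.32%, 2.14% and 2.08% in delta-Q, 1.72%, 1.76% and 1.64% in delta-POZ and 2.23%, 2.18% and 2.21% in Halo-Trl. Without eEF1alpha1, as with it, the delta-Q and Halo-Trl libraries overlapped, and the delta-POZ libraries again lay below both.

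**Figure D1:**
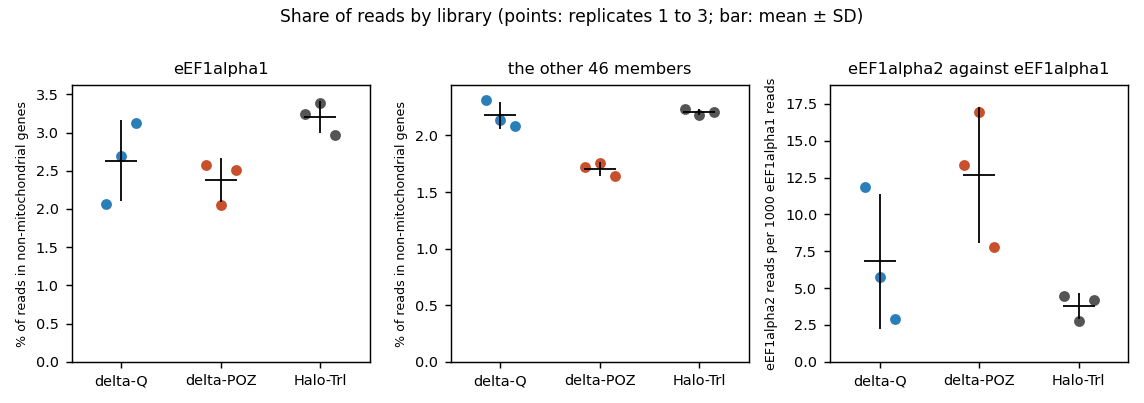
Share of reads outside the mitochondrial genome taken by eEF1alpha1 and by the other 46 members, and eEF1alpha2 reads per 1000 eEF1alpha1 reads, by library (points are replicates, bars the mean ± SD, n = 3 per genotype). The delta-POZ libraries sit at 1.64% to 1.76% for the other members, below delta-Q at 2.08% to 2.32% and Halo-Trl at 2.18% to 2.23%.

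Many translation factor transcripts were less abundant in delta-POZ than in Halo-Trl discs, with at least 1 lower gene in every group but eIF1 with eIF1A and eIF5 with eIF5B. Of the 45 members that passed the filter on low counts, 15 were lower (33.3%) and 1 was higher (2.22%) at a Benjamini-Hochberg adjusted p under 0.05 in edgeR's quasi-likelihood test, against 5.2% lower and 4.93% higher among all 10359 genes tested. In either direction 16 members were called (35.6%, against 10.1% of all genes), and 28 had an unadjusted p under 0.05 (62.2%, against 26% of all genes). The median log2 fold change was -0.40 over these members and -0.01 over all genes tested, and 41 of the 45 were negative, against 50.5% of all genes. All 3 delta-POZ libraries lay below all 3 Halo-Trl libraries for 28 members (62.2%, against 16.9% of all genes) and above them for 1 (2.22%, against 16.2%). The 15 lower members were eIF3a, eIF3b, eIF3d1, eIF3j and eIF3l of eIF3, eIF2beta and eIF2D, eIF2Bepsilon, eIF4G1, eIF6, eEF1beta, eEF1delta and eEF1gamma, eEF5 and eRF3. The higher member was eEF1alpha2.

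The count depends on single libraries. It was 2 members when Halo-Trl 3 was left out, 5 for Halo-Trl 2, 7 for delta-POZ 2, 9 for delta-POZ 3 and 5 when libraries were scaled by total counts alone, each of them among the 16 called with all libraries. The count over all genes fell too. It was 411 of 11006 without Halo-Trl 3 (2 of 46 members) and 487 of 10965 without Halo-Trl 2 (5 of 46). It was 663 of 10768 without delta-POZ 2 (7 of 46) and 689 of 10917 without delta-POZ 3 (9 of 45). With total counts alone it was 646 of 10359 (5 of 45). Of the 16 calls, that of eIF3b was kept in each of 20 alternatives, and none changed sign. With delta-Q 3, delta-POZ 2 and Halo-Trl 1, the libraries with the highest fat body or neuron sums, left out together, which was chosen once the values were known, 8 of the 16 were called and no other member. Over all genes 706 of 10263 were called in that fit. Blood cell markers were higher in delta-POZ for 3 of 7 genes (He, NimC1 and crq), or 42.9%, against 4.93% of all genes. Their sums were 260 to 778 CPM in delta-POZ and 184 to 374 CPM in Halo-Trl, so that the sums overlapped. Differentiated muscle markers summed to 144, 241 and 138 CPM in delta-POZ and 122 to 126 CPM in Halo-Trl, without overlap. The delta-Q sums, at 144 to 189 CPM, lay above those of Halo-Trl too. Much of each sum was sls, with means of 99.9 CPM in delta-POZ and 94.9 CPM in Halo-Trl (log2 0.07, SE 0.11, not called). All 8 markers had positive fold changes. For Mhc, up, wupA, sls, bt and TpnC73F, delta-POZ 2 was the only delta-POZ library above all of Halo-Trl. TpnC73F was at 0.855, 18.0 and 1.30 CPM in delta-POZ and 0.992, 1.10 and 1.46 CPM in Halo-Trl. The fold change of Mlc2, a myosin light chain, was called (12.5%, log2 1.56, SE 0.25, adjusted p = 0.00434). Muscle precursor markers summed to 279 to 327 CPM in delta-POZ and 209 to 243 CPM in Halo-Trl, again without overlap. Of 5 genes zfh1 was called (20%, log2 0.75, SE 0.17, adjusted p = 0.0209). It was at 88.9, 129 and 150 CPM in delta-POZ and 74.6, 72.2 and 71.9 CPM in Halo-Trl. The other genes of this list overlapped between these genotypes, with log2 fold changes from -0.20 (htl) to 0.29 (Him), and were not called. Called higher as well were Gasp, 1 of 5 tested trachea markers (20%, log2 0.60, SE 0.14, adjusted p = 0.0235), and Syt1, 1 of 5 neuron and glia markers (20%, log2 2.99, SE 0.82, adjusted p = 0.0452). Syt1 was at 11.5, 112 and 14.0 CPM in delta-POZ, against 7.63, 5.65 and 3.95 CPM in Halo-Trl. Of these 5 markers 4 had positive fold changes and elav a negative one (log2 -0.40, SE 1.07, not called). Levels of elav were 4.88, 137 and 3.36 CPM in delta-POZ and 51.1, 74.0 and 66.9 CPM in Halo-Trl. No marker of any list was called lower in delta-POZ. Yet all 6 fat body markers had negative fold changes, with a median log2 of -5.30 and a smallest adjusted p of 0.11. Of them 5 had an unadjusted p under 0.05 (26% of all genes did). Their sums of 33.5 to 249 CPM in delta-POZ and 15.1 to 5945 CPM in Halo-Trl overlapped, and only Halo-Trl 1 was high. The part of these cell types in the members' differences was not tested.

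**Figure D2:**
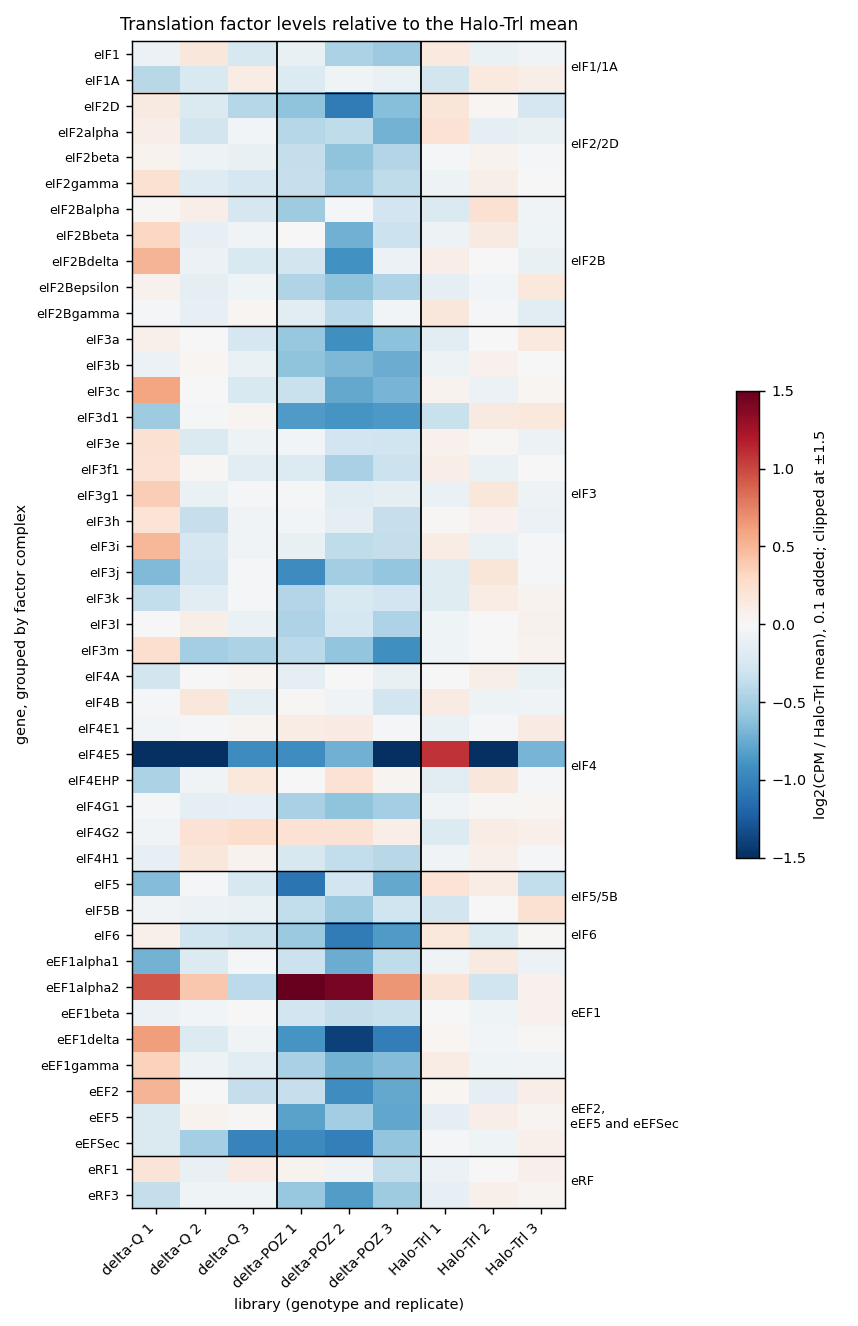
Level of 45 members in each of 9 libraries, as the log2 ratio of CPM to the mean of the Halo-Trl libraries (0.1 CPM added, colours clipped at ±1.5), with genes in rows by factor complex. Most rows are blue in the delta-POZ columns, the eIF4 rows other than eIF4G1, eIF4H1 and eIF4E5 are pale there, and eEF1alpha2 is red.

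In delta-Q no member differed detectably from Halo-Trl. Of 45 members, 0 were called by edgeR (0.656% of all genes were, 0.396% as higher and 0.261% as lower) and 0 by DESeq2, and 0 had an unadjusted p under 0.05 (7.82% of all genes did). The smallest adjusted p was 0.73, and the median log2 fold change was -0.05, against 0.02 over all genes tested. Of the members 30 of 45 had a negative fold change (66.7%, against 46.9% of all genes). The count was 0 in each of 20 alternatives. One member, eEFSec, the elongation factor for selenocysteine, had delta-Q libraries all below those of Halo-Trl (1 of 45, or 2.22%, against 5.74% of all genes; 0 members and 7.36% of all genes had them all above), with a log2 fold change of -0.55 (SE 0.29, adjusted p = 0.744).

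Set directly against each other, the deletion lines differed. Relative to delta-POZ, 9 members were higher in delta-Q (20%, against 3.05% of all genes) and 0 were lower (1.55% of all genes; 4.6% were called in either direction), with a median log2 fold change of 0.37 over the members and 0.02 over all genes. The 9 were eIF2beta, eIF2Bepsilon, eIF3a, eIF3b, eIF3d1, eIF4G1, eEF1delta, eEF1gamma and eEF5. An unadjusted p under 0.05 was found for 22 of 45 members and for 20.3% of all genes. All delta-Q libraries lay above all delta-POZ libraries for 20 members (44.4%, against 13.3% of all genes) and below them for 0 (10.9%). This comparison shares the delta-POZ libraries with the one above, and all 3 genotypes share 1 estimate of the spread. The count fell to 2 without delta-Q 2, delta-POZ 1 or delta-POZ 3, to 3 without delta-POZ 2, Halo-Trl 2 or Halo-Trl 3, to 5 without delta-Q 1, and to 2 in a fit of these 2 genotypes alone, while DESeq2 called 16 higher and 1 lower. Over all genes it was 268 of 10938, 313 of 10935 and 237 of 10917 without delta-Q 2, delta-POZ 1 and delta-POZ 3. Without delta-POZ 2, Halo-Trl 2 and Halo-Trl 3 it was 268 of 10768, 331 of 10965 and 300 of 11006. Without delta-Q 1 it was 281 of 10916, and with 2 genotypes alone 263 of 9881. With DESeq2, 554 genes were higher and 516 lower, of 14603 with a fold change. Fat body markers moved in this comparison as well. Their sums of 581 to 6205 CPM in delta-Q lay above the 33.5 to 249 CPM in delta-POZ. Of 6 genes, 5 were separated in this direction (83.3%, against 13.3% of all genes). Their median log2 fold change was 5.72 and no gene was called (smallest adjusted p = 0.113). The markers zfh1, Mlc2, crq and Gasp were called lower in delta-Q than in delta-POZ. The part of these cell types in the members' differences was not tested.

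**Figure D3:**
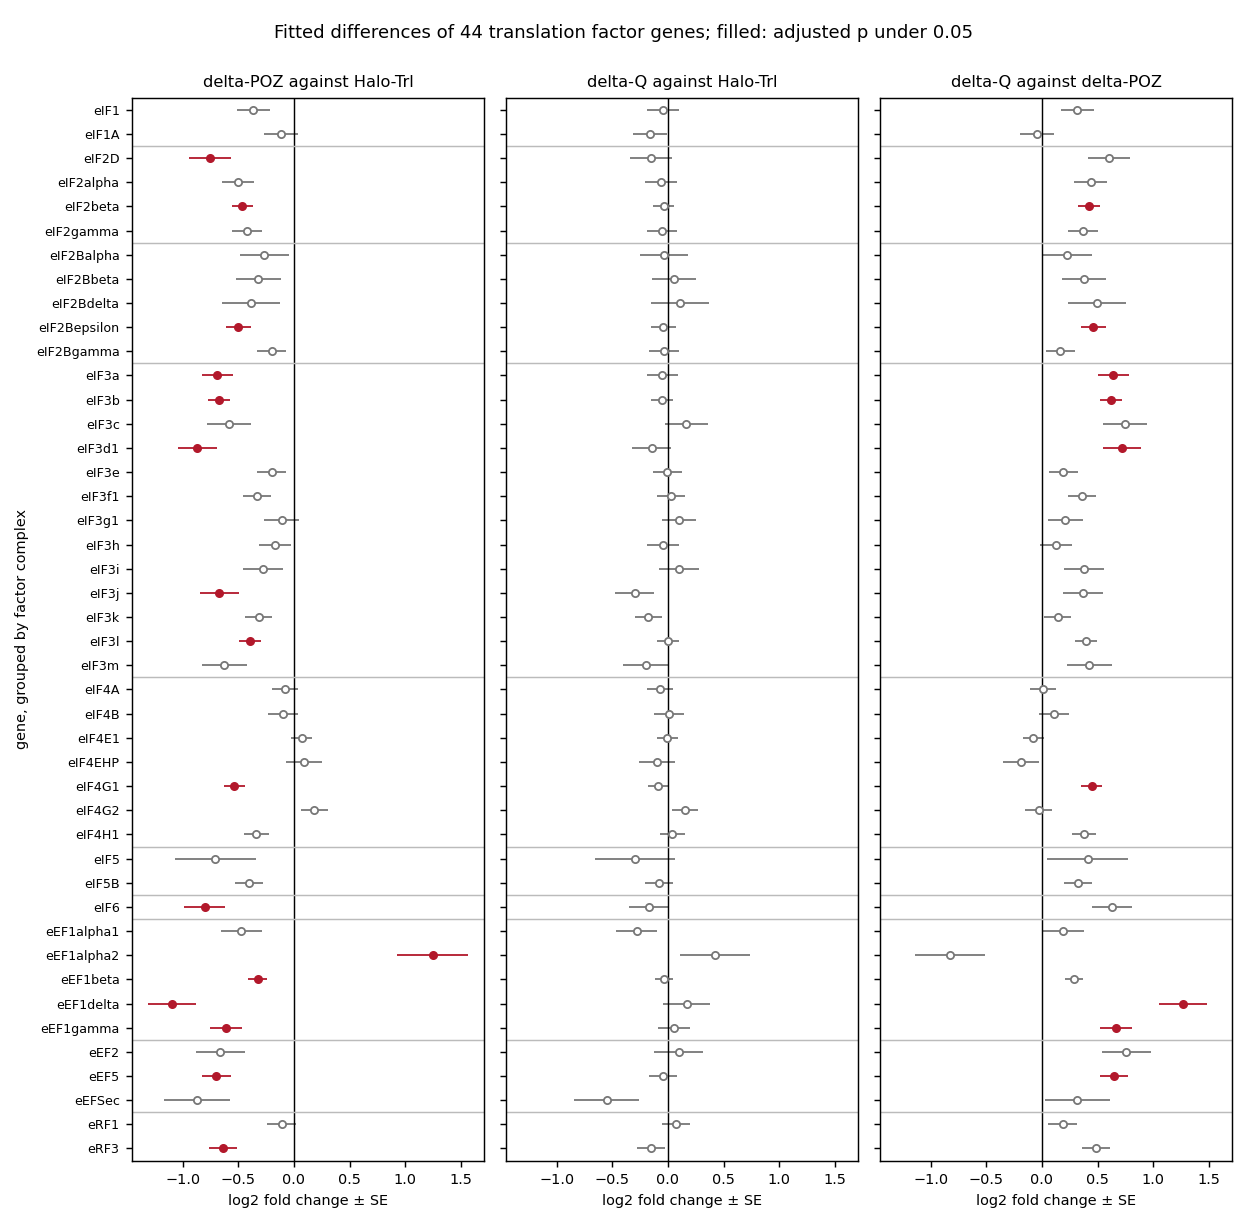
Fitted log2 fold changes with their standard errors for 44 members in 3 comparisons, first-named genotype over the second, grouped by factor complex (filled points have an adjusted p under 0.05; eIF4E5, which has few reads, is left out for scale). Points lie left of 0 for most members in delta-POZ against Halo-Trl, around 0 in delta-Q against Halo-Trl, and right of 0 in delta-Q against delta-POZ.

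Of the factors that scan for the start codon, eIF1, which keeps the ribosome open during scanning, and eIF1A, which helps the initiator tRNA to bind, were not called in any comparison. eIF1A stood at 157, 179 and 228 CPM in delta-Q, 183, 201 and 197 CPM in delta-POZ and 174, 232 and 225 CPM in Halo-Trl. The 3 genotypes overlapped, and the log2 fold change was -0.12 in delta-POZ against Halo-Trl (SE 0.15, 95% interval -0.46 to 0.22). For eIF1 it was -0.36 (SE 0.15, adjusted p = 0.152).

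In the group that delivers the initiator tRNA, 2 of 4 genes were lower in delta-POZ (50%, against 5.2% of all genes). eIF2beta, the eIF2 subunit that contacts eIF5 and eIF2B, was at 95, 86.6 and 84.8 CPM in delta-Q, 71.3, 60.1 and 67.3 CPM in delta-POZ and 90.0, 94.5 and 89.3 CPM in Halo-Trl. Each delta-POZ library lay below each library of the other genotypes, which overlapped with one another. It fell by 27.4% in delta-POZ relative to Halo-Trl (log2 -0.46, SE 0.10, adjusted p = 0.0152) and delta-Q exceeded delta-POZ (log2 0.42, SE 0.10, adjusted p = 0.0375), while delta-Q and Halo-Trl differed by -0.04 (95% interval -0.25 to 0.17). The first call was lost without delta-POZ 2, Halo-Trl 2 or Halo-Trl 3 (adjusted p = 0.0519 to 0.0681), the second without any 1 of the 9 libraries (0.0511 to 0.15).

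eIF2D, which can place an initiator tRNA without eIF2 and helps to recycle ribosomes, was at 31.3, 24.6 and 21.2 CPM in delta-Q, 18.8, 13.7 and 18.3 CPM in delta-POZ and 32.5, 29.2 and 24.0 CPM in Halo-Trl. The delta-POZ libraries were again the lowest, at log2 -0.75 relative to Halo-Trl (SE 0.19, adjusted p = 0.0342), and without delta-Q 2 or any 1 of the delta-POZ or Halo-Trl libraries the call was lost (adjusted p = 0.0556 to 0.106). The other subunits of eIF2 had log2 fold changes of -0.50 (eIF2alpha, the subunit phosphorylated under stress, adjusted p = 0.0576) and -0.42 (eIF2gamma, the subunit that binds GTP, adjusted p = 0.0779) and were not called, though their delta-POZ libraries too lay below those of Halo-Trl. eIF2beta overlaps the gene ver and eIF2D overlaps Pglym78 in the annotation, and whether reads were assigned by strand is not given in the sources used here.

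Of the 5 subunits of eIF2B, the exchange factor of eIF2, 1 was lower in delta-POZ (20%, against 5.2% of all genes), the catalytic subunit eIF2Bepsilon. Its levels were 54.2, 46.9 and 49.5 CPM in delta-Q, 38.0, 34.0 and 37.6 CPM in delta-POZ and 47.1, 50.4 and 57.8 CPM in Halo-Trl, with no delta-POZ library reaching the lowest of the others. The difference was a log2 of -0.50 from Halo-Trl (SE 0.11, adjusted p = 0.0206), lost without delta-POZ 2, delta-POZ 3, Halo-Trl 2 or Halo-Trl 3 (adjusted p = 0.0556 to 0.101). delta-Q exceeded delta-POZ by 0.46 (SE 0.11, adjusted p = 0.0489), a call lost without any 1 of the 9 libraries (adjusted p = 0.0581 to 0.175) and kept in 3 of 20 alternatives. The gene overlaps mip130. The remaining subunits (alpha, beta, gamma and delta) were between -0.39 and -0.20 on the log2 scale in delta-POZ against Halo-Trl and were not called (adjusted p = 0.357 to 0.494).

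All 13 subunits of eIF3, the largest initiation factor and the platform on which the others assemble, had negative fold changes in delta-POZ against Halo-Trl (50.5% of all genes did). Of the 13, 5 were called lower (38.5%, against 5.2% of all genes). eIF3b, a core scaffold subunit, was at 975, 1054 and 965 CPM in delta-Q, 682, 648 and 618 CPM in delta-POZ and 985, 1081 and 1039 CPM in Halo-Trl. The delta-POZ libraries lay far below the rest, and delta-Q overlapped Halo-Trl. It fell by 37.3% in delta-POZ relative to Halo-Trl (log2 -0.67, SE 0.10, adjusted p = 0.00257), while delta-Q exceeded delta-POZ by 0.62 (SE 0.10, adjusted p = 0.00651) and differed from Halo-Trl by -0.05 (95% interval -0.27 to 0.16). The delta-Q against delta-POZ call was lost when delta-Q 3, delta-POZ 2 and Halo-Trl 1 were left out together (adjusted p = 0.0561).

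eIF3a, the largest core subunit, was at 657, 629 and 525 CPM in delta-Q, 423, 330.4 and 409 CPM in delta-POZ and 554, 629 and 692 CPM in Halo-Trl. Its log2 fold change was -0.69 in delta-POZ against Halo-Trl (SE 0.14, adjusted p = 0.0134, and 0.0522 to 0.0678 without Halo-Trl 2 or Halo-Trl 3) and 0.64 in delta-Q against delta-POZ (SE 0.14, adjusted p = 0.0303). The second was lost without delta-Q 1, delta-Q 2, any delta-POZ library, Halo-Trl 2 or Halo-Trl 3 (adjusted p = 0.0508 to 0.11). Again the delta-POZ libraries were below all others.

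eIF3d1, the subunit whose human counterpart can bind the mRNA cap, was at 498, 712 and 738 CPM in delta-Q, 398, 388 and 395 CPM in delta-POZ and 569, 788 and 801 CPM in Halo-Trl. The delta-POZ libraries were close together and the lowest, and replicate 1 was the lowest of its genotype in delta-Q and in Halo-Trl. The gene fell by 45.2% relative to Halo-Trl (log2 -0.87, SE 0.17, adjusted p = 0.0129, and 0.0574 to 0.0628 without Halo-Trl 2 or Halo-Trl 3). delta-Q exceeded delta-POZ by 0.72 (SE 0.17, adjusted p = 0.0465), which was lost without delta-Q 2, delta-Q 3, any delta-POZ library, Halo-Trl 2 or Halo-Trl 3 (adjusted p = 0.0735 to 0.145). This second call was kept in 7 of 20 alternatives. Other normalizations (RLE or upper-quartile factors), no filter, these 2 genotypes alone or leaving out mitochondrial genome genes also ended it.

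A smaller difference was found for eIF3l, a peripheral subunit, at 223, 239 and 209 CPM in delta-Q, 163, 186 and 162 CPM in delta-POZ and 214, 224 and 233 CPM in Halo-Trl. The delta-POZ libraries lay below all others. Its log2 fold change in delta-POZ against Halo-Trl was -0.40 (SE 0.10, adjusted p = 0.0311), lost without delta-POZ 1, delta-POZ 3 or any Halo-Trl library (adjusted p = 0.052 to 0.126). eIF3j, a loosely bound subunit near the decoding centre, was at 135, 176 and 212 CPM in delta-Q, 111, 149.9 and 143 CPM in delta-POZ and 189.7, 243 and 211 CPM in Halo-Trl. Here delta-Q overlapped both other genotypes, and delta-POZ lay below Halo-Trl by a log2 of -0.67 (SE 0.18, adjusted p = 0.0406), which was lost without delta-Q 2, any delta-POZ library, Halo-Trl 2 or Halo-Trl 3 (adjusted p = 0.0661 to 0.145). The call of eIF3j was lost with RLE and with upper-quartile factors too. The 8 subunits not called ranged from -0.63 (eIF3m) to -0.11 (eIF3g1) on the log2 scale, with adjusted p from 0.0865 to 0.708. Of these, eIF3c (adjusted p = 0.0215) and eIF3m (0.0261) are called lower in the authors' deposited table.

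For the eIF4 factors, which recognise the cap and unwind the mRNA, the median log2 fold change was -0.09 in delta-POZ against Halo-Trl. Of the 8 tested, 1 was lower (12.5%, against 5.2% of all genes). That gene was eIF4G1, the scaffold that links the cap-binding protein to the helicase and to eIF3, with 1144, 1058 and 1062 CPM in delta-Q, 823, 761 and 810.1 CPM in delta-POZ and 1119, 1169 and 1185 CPM in Halo-Trl. The delta-POZ libraries were the lowest, 31.1% below Halo-Trl in the fit (log2 -0.54, SE 0.09, adjusted p = 0.00669). The call was lost with total counts alone and without delta-Q 3, delta-POZ 2 and Halo-Trl 1 together (adjusted p up to 0.0662). delta-Q exceeded delta-POZ by 0.45 (SE 0.09, adjusted p = 0.0256), which was lost without delta-Q 1, delta-Q 2, any delta-POZ library, Halo-Trl 2 or Halo-Trl 3 (adjusted p = 0.0555 to 0.14).

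eIF4A, the RNA helicase, was at 2813, 3380.5 and 3495 CPM in delta-Q, 3101, 3388 and 3149 CPM in delta-POZ and 3407, 3622 and 3179 CPM in Halo-Trl. The genotypes overlapped, and the fitted log2 fold change in delta-POZ against Halo-Trl was -0.08 (SE 0.12, 95% interval -0.34 to 0.18). The cap-binding protein eIF4E1 differed by 0.07 (SE 0.10), its repressive relative eIF4EHP by 0.09 (SE 0.16), eIF4B, a helper of the helicase, by -0.10 (SE 0.13) and eIF4G2, a paralog of eIF4G1, by 0.18 (SE 0.12). eIF4H1 was at -0.34 (SE 0.11, adjusted p = 0.0843), with its delta-POZ libraries below those of Halo-Trl. It is called lower in the authors' deposited table (adjusted p = 0.0291).

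Among the factors of subunit joining, eIF5B, the GTPase that brings in the large subunit, was at 159, 155 and 154 CPM in delta-Q, 128, 112 and 134 CPM in delta-POZ and 137, 165 and 193 CPM in Halo-Trl. The delta-POZ libraries lay below the others, and the log2 fold change of -0.40 from Halo-Trl was not called (SE 0.13, adjusted p = 0.0773), though it was called by DESeq2 (adjusted p = 0.0347) and without Halo-Trl 1 (0.0311). eIF5, which triggers GTP hydrolysis by eIF2, had 146 to 172 reads in delta-Q, 88 to 139 in delta-POZ and 120 to 245 in Halo-Trl and was not called (log2 -0.71, SE 0.36, adjusted p = 0.259). It overlaps CG46312, which had 0 reads in every library.

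eIF6, which keeps large subunits from joining small ones too early, was at 23.8, 18.2 and 17.8 CPM in delta-Q, 15.3, 10.9 and 12.5 CPM in delta-POZ and 25.1, 19.6 and 22.9 CPM in Halo-Trl. No delta-POZ library reached the lowest of the other 6. It fell by 42.7% in delta-POZ relative to Halo-Trl (log2 -0.80, SE 0.18, adjusted p = 0.0213), a call lost without delta-POZ 2, delta-POZ 3, Halo-Trl 1 or Halo-Trl 3 (adjusted p = 0.0638 to 0.0801). The gene overlaps ytr.

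In eEF1 the members moved in opposite directions. eEF1delta, a subunit of the exchange complex that recharges eEF1alpha, was at 60.0, 33.6 and 37.6 CPM in delta-Q, 21.0, 14.7 and 18.9 CPM in delta-POZ and 39.5, 37.6 and 39.4 CPM in Halo-Trl. Every delta-POZ library was below every other library, and delta-Q 1 was the highest. It fell by 53.2% in delta-POZ relative to Halo-Trl (log2 -1.09, SE 0.21, adjusted p = 0.0121, lost without Halo-Trl 3 at 0.0512 and with total counts alone at 0.068) and delta-Q exceeded delta-POZ by a log2 of 1.26 (SE 0.22, adjusted p = 0.00997). The second call was kept without each single library, and was lost with total counts alone (adjusted p = 0.0523).

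eEF1gamma, a structural subunit of the same complex, was at 656, 488 and 463 CPM in delta-Q, 369, 315 and 329 CPM in delta-POZ and 559, 494 and 496 CPM in Halo-Trl. The log2 fold change was -0.61 in delta-POZ against Halo-Trl (SE 0.14, adjusted p = 0.0241), lost without delta-POZ 2, delta-POZ 3 or any Halo-Trl library (adjusted p = 0.066 to 0.0777). delta-Q exceeded delta-POZ by 0.67 (SE 0.14, adjusted p = 0.0289), lost without delta-Q 1, delta-Q 2, any delta-POZ library, Halo-Trl 2 or Halo-Trl 3 (adjusted p = 0.0523 to 0.104). eEF1beta, the subunit that exchanges the nucleotide, was at 131, 136 and 140.4 CPM in delta-Q, 114, 109 and 110.4 CPM in delta-POZ and 139.8, 133 and 146 CPM in Halo-Trl. Its log2 fold change of -0.33 in delta-POZ against Halo-Trl (SE 0.08, adjusted p = 0.033) was the smallest in size of the 16 called, and the call was lost without delta-Q 2 or any 1 of the delta-POZ or Halo-Trl libraries (adjusted p = 0.0541 to 0.142). Upper-quartile factors, total counts alone, no filter or a replicate block ended it too, and it was kept in 8 of 20 alternatives. For both genes the delta-POZ libraries lay below all others.

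The paralogs of eEF1alpha differed. eEF1alpha2 was at 177, 121 and 69.5 CPM in delta-Q, 261, 247 and 145 CPM in delta-POZ and 104, 74.6 and 95.9 CPM in Halo-Trl. The delta-POZ libraries lay above all of Halo-Trl, and delta-Q spread over both. Its log2 fold change was 1.25 in delta-POZ against Halo-Trl (SE 0.32, adjusted p = 0.0358), lost without delta-Q 2, delta-POZ 1, delta-POZ 2 or any Halo-Trl library (adjusted p = 0.0635 to 0.135). In delta-Q against delta-POZ it was -0.83 (SE 0.32) and was not called by edgeR (adjusted p = 0.179), but was by DESeq2 (0.0267). eEF1alpha1, the form most widely used in fly tissues, was at 14906, 21174 and 24148 CPM in delta-Q, 19542, 14569 and 18673 CPM in delta-POZ and 23482, 26758 and 22967 CPM in Halo-Trl. Its delta-POZ libraries lay below those of Halo-Trl, and the log2 fold change of -0.47 was not called (SE 0.19, adjusted p = 0.142).

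For each 1000 reads of eEF1alpha1 there were 11.9, 5.74 and 2.88 reads of eEF1alpha2 in delta-Q, 13.4, 16.9 and 7.79 in delta-POZ and 4.45, 2.79 and 4.17 in Halo-Trl. The ratio in each delta-POZ library was above that in each Halo-Trl library. The coding sequences of these paralogs are closely alike, and the split of reads between them is uncertain since the counting of shared reads is not given in the sources used here.

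Of the other elongation factors, eEF5, the hypusinated protein that helps ribosomes past runs of proline, was at 1973, 2379 and 2326 CPM in delta-Q, 1314, 1603 and 1337 CPM in delta-POZ and 2086, 2453 and 2356 CPM in Halo-Trl. The delta-POZ libraries were the lowest and the others overlapped. It fell by 38.3% in delta-POZ relative to Halo-Trl (log2 -0.70, SE 0.13, adjusted p = 0.00876, and 0.0504 without Halo-Trl 3). delta-Q exceeded delta-POZ by 0.65 (SE 0.13, adjusted p = 0.0199), which was lost without delta-Q 2, delta-Q 3, delta-POZ 1 or delta-POZ 3 (adjusted p = 0.0556 to 0.0839). An annotated non-coding gene, lncRNA:CR44814, overlaps eEF5.

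eEF2, the translocase, was at 3131, 2193 and 1718 CPM in delta-Q, 1727, 1147 and 1286 CPM in delta-POZ and 2248, 1981 and 2359 CPM in Halo-Trl. delta-POZ lay below Halo-Trl, delta-Q overlapped both, and the log2 fold change of -0.66 in delta-POZ against Halo-Trl was not called (SE 0.22, adjusted p = 0.089). eEFSec had delta-POZ libraries below those of Halo-Trl as well and was not called, with a log2 fold change of -0.87 (SE 0.29, adjusted p = 0.094). The authors' deposited table calls eEF2 (adjusted p = 0.0134) and eEFSec (0.0477) lower.

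Of the release factors, eRF3, the GTPase that works with eRF1, was at 538, 662 and 663 CPM in delta-Q, 466, 388 and 478 CPM in delta-POZ and 634, 730.2 and 709.5 CPM in Halo-Trl. The 3 delta-POZ libraries were below all others, by a log2 of -0.64 from Halo-Trl (SE 0.13, adjusted p = 0.0128), and the call was lost without delta-POZ 2, Halo-Trl 2 or Halo-Trl 3 (adjusted p = 0.0574 to 0.0597). eRF3 overlaps SC35. eRF1, which reads the stop codon, was at 111, 90.5 and 106 CPM in delta-Q, 101, 94.1 and 75.5 CPM in delta-POZ and 91.7, 97.6 and 103 CPM in Halo-Trl. Its genotypes overlapped (log2 -0.11 in delta-POZ against Halo-Trl, SE 0.13, adjusted p = 0.637).

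**Figure D4:**
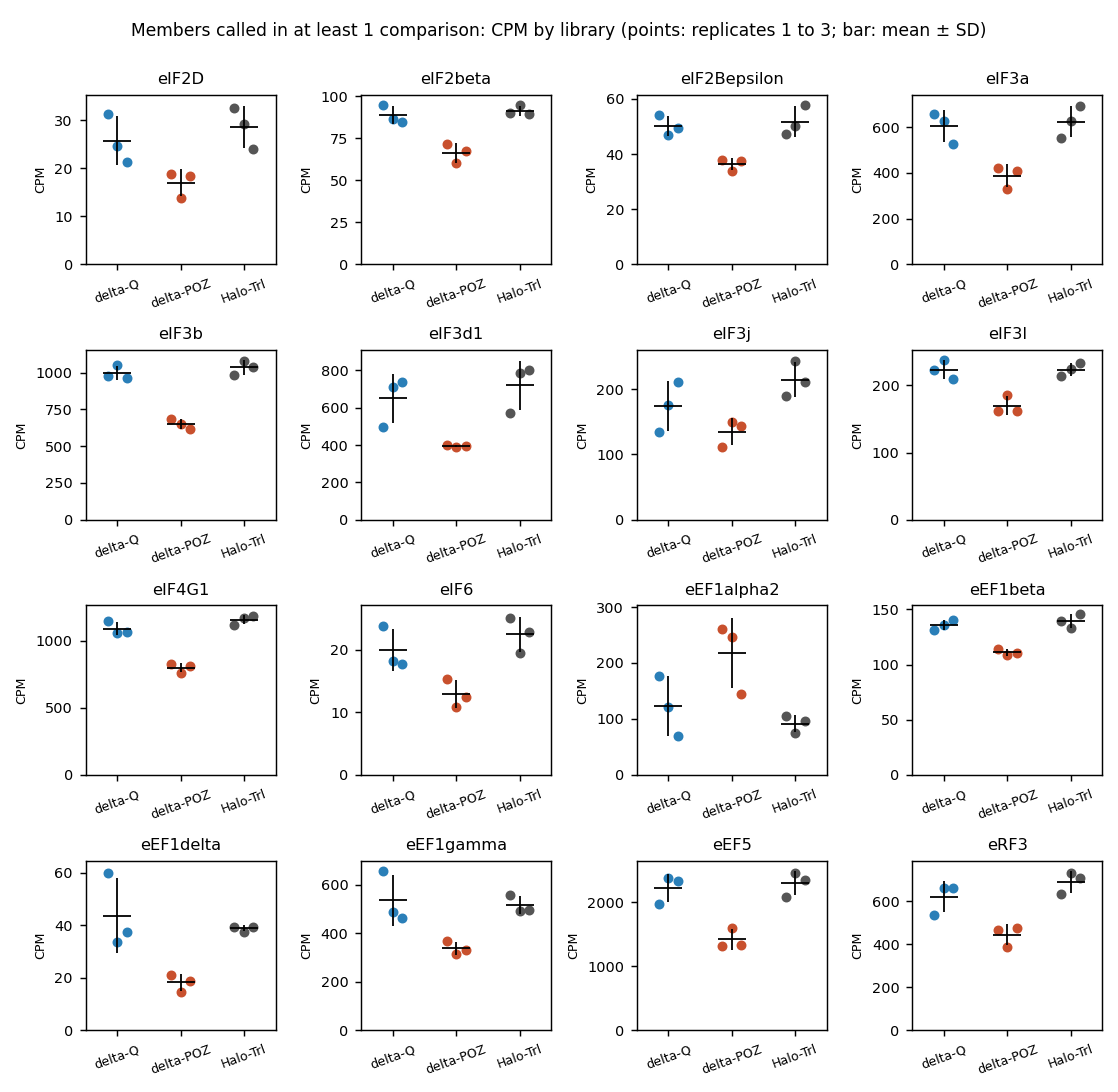
CPM of the 16 members called in at least 1 comparison, by library (points are replicates 1 to 3, bars the mean ± SD, n = 3 per genotype, each axis from 0). In 15 panels the delta-POZ points lie below the Halo-Trl points, and in the eEF1alpha2 panel they lie above, at 145 to 261 CPM.

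Several factors have paralogs with few reads in wing discs. Of the 53 names, 9 had a mean under 50 reads, a limit chosen after the values were seen: the members eIF4E4, eIF4E5 and eIF4E7, and eIF4E3, eIF4E6, eIF4H2, eIF3d2, eIF3f2 and eIF3g2 below the minimum. Halo-Trl 1 held 656 of their 867 reads (75.7%). eIF4E4 had 198 reads in Halo-Trl 1, 4 in delta-POZ 2 and 0 in the others, and eIF4E3 had 86 reads in Halo-Trl 1 alone.

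eIF4E5, a further relative of the cap-binding protein, passed the filter, with 1, 4 and 28 reads in delta-Q, 32, 33 and 13 in delta-POZ and 162, 14 and 31 in Halo-Trl. The delta-Q and delta-POZ libraries overlapped with Halo-Trl, and only Halo-Trl 1 stood far above the rest. Of 8 germ line and testis markers, aly and betaTub85D, which act in the male germ line, had 48 of 49 reads and 228 of 241 reads in Halo-Trl 1. The other 6 had smaller shares of their reads there, at 33% for can (59 of 179, against 62 in delta-POZ 2), 25% for aub, 14.7% for vas, 13.6% for piwi, 12.1% for bam and 2.14% for nos. Over all 8 germ line and testis markers the sum was 2.91 to 4.23 CPM in delta-Q, 3.27 to 9.04 CPM in delta-POZ and 3.80 to 10.7 CPM in Halo-Trl, each marker having reads in at least 1 library and 3 having reads in all of them. Their part in the paralogs' reads was not tested.

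**Figure D5:**
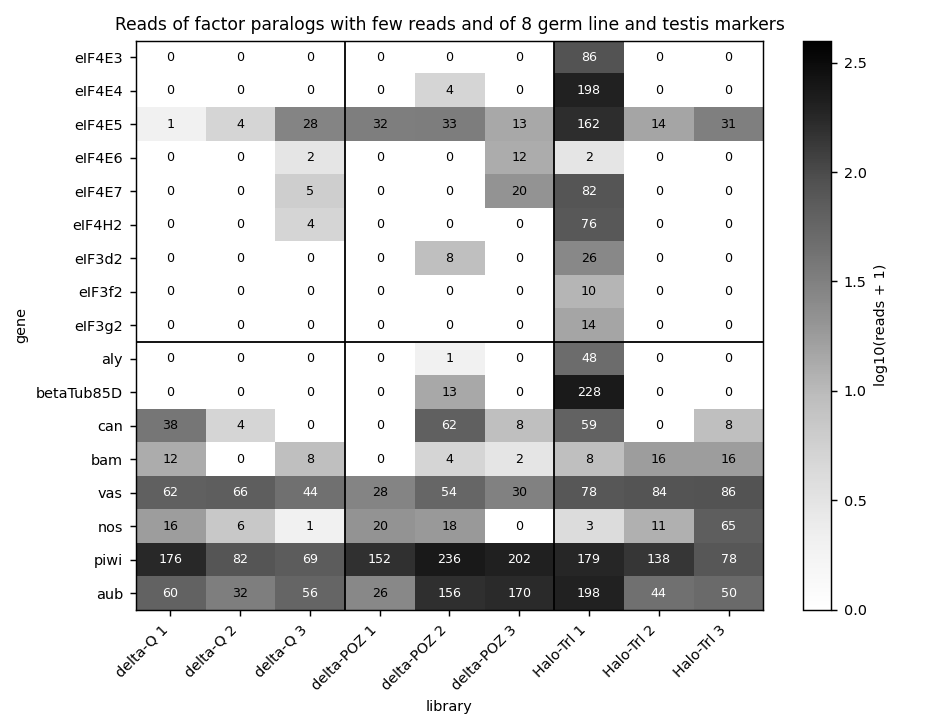
Reads in each of 9 libraries for the 9 factor paralogs with few reads and for 8 germ line and testis markers (numbers are reads, shading is log10 of reads + 1). The column of Halo-Trl 1 holds 656 of the 867 paralog reads.

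Genes that act with these factors were taken as 4 lists, to be read against 5.2% lower and 4.93% higher of all genes in delta-POZ against Halo-Trl, and 3.05% higher in delta-Q against delta-POZ. Of other translation factors, 14 of 15 were tested, and in delta-POZ against Halo-Trl 1 was lower and 1 higher (7.14% each, median log2 fold change -0.10). kra, an eIF5-related regulator of initiation, was at 516, 507 and 579 CPM in delta-Q, 317, 383 and 368 CPM in delta-POZ and 538, 590.4 and 585 CPM in Halo-Trl. Its delta-POZ libraries were the lowest (log2 -0.68, SE 0.11, adjusted p = 0.00444, kept in 20 of 20 alternatives), and delta-Q exceeded delta-POZ by 0.58 (SE 0.11, adjusted p = 0.0163, lost without delta-POZ 1 or delta-POZ 3 at 0.0559 to 0.0567). mxt, an eIF4E-binding initiation factor, was higher (log2 0.47, SE 0.09, adjusted p = 0.00999, and 0.0552 without Halo-Trl 3). Besides kra, no gene of this list was called in delta-Q against delta-POZ.

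Of 23 genes that control initiation, 3 were lower and 1 was higher in delta-POZ against Halo-Trl (13% and 4.35%, against 5.2% and 4.93% of all genes, median log2 fold change -0.12). Myc, the growth regulator that drives ribosome production, was at 696, 1039 and 1069 CPM in delta-Q, 251, 236 and 279 CPM in delta-POZ and 811, 1075 and 985 CPM in Halo-Trl. The delta-POZ libraries stood far below both other genotypes, at a log2 of -1.91 from Halo-Trl (SE 0.18, adjusted p = 2.84e-04) and with delta-Q above delta-POZ by 1.87 (SE 0.18, adjusted p = 5.65e-04). Both calls were kept in 20 of 20 alternatives. The TOR inhibitor chrb was lower by -1.23 (SE 0.15, adjusted p = 0.00103) and delta-Q exceeded delta-POZ by 0.98 (SE 0.15, adjusted p = 0.00554). Pdk1, a kinase upstream of Akt and S6 kinase, was lower by -0.36 (SE 0.09, adjusted p = 0.0281), lost without delta-POZ 1, delta-POZ 2 or any Halo-Trl library (0.0598 to 0.124). crc, the fly ATF4, which is made when eIF2alpha is phosphorylated, was higher by 0.63 (SE 0.13, adjusted p = 0.0153), lost without delta-POZ 1, Halo-Trl 2 or Halo-Trl 3 (0.0529 to 0.0715).

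Of 9 genes for modification of elongation factors, 1 was lower in delta-POZ against Halo-Trl (11.1%, against 5.2% of all genes), and the median log2 fold change was -0.54. Dph5, which makes diphthamide on eEF2, was at 27.5, 16.5 and 14.9 CPM in delta-Q, 10.3, 8.90 and 9.14 CPM in delta-POZ and 22.9, 18.5 and 15.3 CPM in Halo-Trl. The delta-POZ libraries were the lowest (log2 -0.998 from Halo-Trl, SE 0.24, adjusted p = 0.0294), and the call was lost without any 1 of the delta-POZ or Halo-Trl libraries (0.0515 to 0.086). delta-Q exceeded delta-POZ for Dph5 (log2 1.05, SE 0.24, adjusted p = 0.0404) and for Sps1, of the selenophosphate synthetase family (0.62, SE 0.14, adjusted p = 0.0389). Both calls were lost without most single libraries, that of Dph5 without any but delta-Q 3 and Halo-Trl 1 (0.0588 to 0.115) and that of Sps1 without any but delta-Q 2 and Halo-Trl 1 (0.0616 to 0.122).

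Of 9 mitochondrial translation factors tested, 1 was lower in delta-POZ against Halo-Trl (11.1%, against 5.2% of all genes, median log2 fold change -0.23). It was mEFG1, an elongation factor of mitochondrial ribosomes, at 13.4, 12.3 and 12.5 CPM in delta-Q, 10.4, 10.0 and 8.76 CPM in delta-POZ and 18.9, 18.2 and 16.1 CPM in Halo-Trl. Here delta-Q lay between the other genotypes without overlap, at log2 -0.48 from Halo-Trl (SE 0.14, adjusted p = 0.277), and delta-POZ at -0.87 (SE 0.14, adjusted p = 0.00471, and 0.051 with total counts alone). None of the 4 lists had a call in delta-Q against Halo-Trl, by edgeR.

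The authors' deposited RNA table does not label its comparison, but of its 14598 log2 fold changes 99.2% were within 0.01 of those from DESeq2 run here for delta-POZ against Halo-Trl. The authors' deposited table calls 23 members lower and 1 higher of 45 with an adjusted p, against 804 lower and 914 higher genes in all. DESeq2 run here called 23 members lower and 1 higher of 45, and 805 genes lower and 924 higher of 14603 with a fold change. How many of all genes had an adjusted p was not counted. In both tables the counts of members and of all genes thus lack a like denominator and give no shares to compare. All 15 members called lower here, and eEF1alpha2 as the higher one, are among those of the authors. This overlap is not separate evidence, since the deposited fold changes are nearly those of DESeq2 on the same counts. The members called lower in the deposited table but not by edgeR here were eIF2alpha, eIF2gamma, eIF3c, eIF3m, eIF4H1, eIF5B, eEF2 and eEFSec. In the chromatin contact data of the series, 0 of 209 wing disc loops and 1 of 186 embryo loops carry the name of a member. The embryo loop is labelled CG3655 and eIF4E7, with a log2 fold change of 0.09 (SE 0.44, adjusted p = 0.985) in the authors' deposited table.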

How the data were processed

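The deposited RNA table holds raw read counts for each gene, made by the authors. Their tools, per the submitters' processing notes, were featureCounts and DESeq2, given with no role. No aligner, genome build or strand setting is named in the sources used here. Of the 20635 counts from 1 to 20, 71.1% are even numbers, for which no reason is given. The authors' deposited tables of comparisons give, per the file headers, log2 fold changes, standard errors, p-values and adjusted p-values.

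The test was edgeR 4.0.16 under R 4.3.3 (glmQLFit and glmQLFTest, TMM factors 0.893 to 1.18), 9 libraries in 1 fit with genotype as the only term. The filterByExpr function left 10359 genes, among them 45 of 47 members (not eIF4E4 and eIF4E7). Benjamini-Hochberg adjustment ran over all genes tested, and calls are adjusted p under 0.05. Fold changes are the first-named genotype over the second. The SE of a fold change is its absolute log2 value over the root of the F statistic. CPM use effective library sizes. The script was tested on simulated counts. Alternatives were DESeq2 1.42.0, other normalizations and filters, a replicate block and leaving out libraries.

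The members and lists were chosen with earlier results of these data known. Values per library are given for members called in any comparison and for the member with the highest mean CPM of each complex. Up to 6 called genes per list are named. The libraries of eEF2, eRF1, the paralogs with few reads and the list genes were chosen for printing after their values were seen. Of the 17868 names, 17809 and all 47 members matched RefSeq names of the assembly Release 6 plus ISO1 MT, used for names and overlapping genes. Of the members 24 overlap another annotated gene, and of the 16 called members 6 do. The labels speak of a biological triplicate. A search for promoter motifs was not run, since no sequence was at hand.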

Additional observations from a re-analysis of the deposited data

How the results depend on the processing

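In 20 alternatives per result no call of a member changed sign. The losses given above per gene are mostly for single libraries left out, and other settings ended calls too. In delta-POZ against Halo-Trl, total counts alone kept the calls of eIF3b, eIF3d1, eIF3j, eEF5 and eRF3 only. Those of the list genes crc, mxt, Pdk1, Dph5 and mEFG1 were lost with it. In delta-Q against delta-POZ, the fit of these 2 genotypes kept the calls of eIF3b and eEF1delta only. The count of members called in delta-POZ against Halo-Trl (16) was 14 to 24 under DESeq2, other factors, filters and fits, apart from 5 with total counts alone and 8 without delta-Q 3, delta-POZ 2 and Halo-Trl 1 together, and it was 2 to 21 when single libraries were left out. In delta-Q against Halo-Trl it was 0 throughout. In delta-Q against delta-POZ (9) it was 17 with DESeq2 (16 higher, 1 lower), 4 with total counts alone, 4 with no filter, 2 with 2 genotypes only, 1 without those 3 libraries and 2 to 7 without single ones. Over all genes, delta-POZ against Halo-Trl (1050, of which 511 higher and 539 lower) gave 1729 with DESeq2 (924 higher, 805 lower), 646 with total counts (402 higher, 244 lower) and 411 to 1258 without single libraries. For delta-Q against Halo-Trl (68) the counts were 246, 44 and 21 to 89, and 107 without the 3 libraries. For delta-Q against delta-POZ (477, of which 316 higher and 161 lower) they were 1070 (554 higher, 516 lower), 248 (142 higher, 106 lower) and 237 to 447, with 263 for 2 genotypes only and 312 without the 3 libraries. The cause of these shifts was not tested. The median of the members stayed within -0.51 to -0.36 (delta-POZ against Halo-Trl), -0.09 to -0.02 (delta-Q against Halo-Trl) and 0.28 to 0.43 (delta-Q against delta-POZ) without single libraries. Uncalled results were followed only for members called in some comparison, the member with the highest mean CPM of each complex and the list genes picked for naming. Of these 45 uncalled results, 13 of 900 refits were called and 45 changed sign, none with a size above 0.19 in the reported fit. Other uncalled members named above, such as eIF2alpha, eIF2gamma, eIF4H1, eEF2 and eEFSec, are not in this tally. No pairing by replicate number was seen (correlations of deviations between equal numbers -0.14 to 0.20, and 4 of 9 libraries correlated best with their own number). With 9 libraries such values cannot show that a pairing is absent. A replicate block gave 17, 0 and 8 called members in the order above, and 45 called genes in delta-Q against Halo-Trl. With 3 libraries per genotype the standard errors of the members had a median of 0.14 on the log2 scale, which limits what could be detected.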

Other observations

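Within each genotype the libraries with the highest and the lowest level of each member were counted. Of the 45 members tested, 24 were highest in delta-Q 1 among the delta-Q libraries and 27 were highest in delta-POZ 1 among the delta-POZ libraries, while in Halo-Trl the highest library was Halo-Trl 1 for 16, Halo-Trl 2 for 17 and Halo-Trl 3 for 12. The lowest library was delta-Q 1 for 15, delta-Q 2 for 12 and delta-Q 3 for 18 members. In delta-POZ it was delta-POZ 1 for 8, delta-POZ 2 for 23 and delta-POZ 3 for 14. In Halo-Trl it was Halo-Trl 1 for 22, Halo-Trl 2 for 14 and Halo-Trl 3 for 9. Such counts were not taken over all genes. The share of mitochondrial reads was 15.1% in delta-Q 1, against 23.7% and 31.1% in the other delta-Q libraries, and 20.4% in delta-POZ 1, against 25.7% and 28.3% in the other delta-POZ libraries. This share was also lowest in replicate 1 of Halo-Trl, at 22.4%, against 28.9% in Halo-Trl 2 and 26.3% in Halo-Trl 3. Its part in the members' levels was not tested.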
